A study of Homo sapiens with 8 samples.

Results

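The genes described are 9 targets of the transcription factor NF-kB: the chemokine genes CXCL1, CXCL2, CXCL3, CXCL5, IL8 (now named CXCL8) and CCL20, the adhesion gene ICAM1, and the inhibitor genes NFKBIA and TNFAIP3. They were found by name, as every non-control probe whose gene name in the array files was one of the 9, which gave 12 of 50599 probes. RNA of DLD1, an established colon adenocarcinoma cell line, was measured on 8 Agilent arrays of a single colour (Cy3). Cells received a control siRNA (siCONT) or an siRNA against UHRF1, the protein that guides the maintenance DNA methyltransferase to newly copied DNA, and 48 h later the histone deacetylase inhibitor trichostatin A (TSA, 300 nM) or its solvent ethanol (mock) for 24 h. The 4 groups of 2 arrays were siCONT with mock, siUHRF1 with mock, siCONT with TSA and siUHRF1 with TSA. In the siUHRF1 groups the 2 arrays carried different siRNAs, siUHRF1-1 and siUHRF1-2, given here as replicates 1 and 2. All cells were of the 1 line, UHRF1 was depleted transiently, and no inflammatory stimulus is named for any group.

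NF-kB is a pair of Rel-family proteins that is held in the cytoplasm by inhibitors of the IkB family until a receptor for a cytokine or a microbial product activates the IkB kinase. The freed factor enters the nucleus and binds kB sites near its target genes. The CXC chemokines among them draw neutrophils through the receptors CXCR1 and CXCR2, CCL20 draws lymphocytes and dendritic cells through CCR6, and ICAM1 holds leukocytes through their integrins. NFKBIA (IkB-alpha) and TNFAIP3 (A20, a ubiquitin-editing enzyme) are targets that switch the pathway off again. In the colon these chemokines are made by epithelial cells as well as by immune cells.

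The promoters of most of these genes hold the letters of a kB site, a feature that goes with their being known as NF-kB targets and is shown as a description. Each gene had 1 promoter window in RefSeq (GRCh38.p14), which runs from 250 bases before the gene start to 50 bases after it. The strict kB motif GGAANTTCC, which reads the same on both strands, was in 7 of the 9 windows, against 0.965% of 35116 windows of that length. The stretches around it are shown, 5′ to 3′ on the gene's strand and with the motif in capitals, because they are the binding-site letters that these 7 members have in common.

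CXCL1: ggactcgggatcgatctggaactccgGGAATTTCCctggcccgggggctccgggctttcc
CXCL2: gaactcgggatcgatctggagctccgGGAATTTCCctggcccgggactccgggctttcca
CXCL3: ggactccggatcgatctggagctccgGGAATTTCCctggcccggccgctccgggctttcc
CXCL5: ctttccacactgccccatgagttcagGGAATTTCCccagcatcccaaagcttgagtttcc
IL8: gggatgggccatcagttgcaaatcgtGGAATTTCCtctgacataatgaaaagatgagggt
NFKBIA: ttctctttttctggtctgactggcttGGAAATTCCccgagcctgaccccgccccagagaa
ICAM1: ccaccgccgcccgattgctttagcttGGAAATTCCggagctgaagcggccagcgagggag

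These stretches lie at chr4:73869289-73869348 (plus strand) for CXCL1, chr4:74099239-74099298 (minus) for CXCL2, chr4:74038734-74038793 (minus) for CXCL3, chr4:73998734-73998793 (minus) for CXCL5, chr4:73740452-73740511 (plus) for IL8, chr14:35404797-35404856 (minus) for NFKBIA and chr19:10270908-10270967 (plus) for ICAM1. The 5 CXC chemokine genes carried the same 9 letters. NFKBIA and ICAM1 showed another middle base, which is the same 9-letter site read on the opposite strand. The motif began 77 to 91 bases before the start in 6 of these genes and 186 bases before it in ICAM1. CXCL1 and CXCL3 had the same base at 56 of the 60 positions shown, and CXCL1 and CXCL2 at 49, so these paralogues do not count as separate occurrences of the motif. CXCL1 and CXCL5 matched at 27 positions.

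CCL20 and TNFAIP3 had no match to the strict motif. Their windows held the loose kB motif, GGG and CC with any 5 bases between them, read on either strand. This loose motif was in all 9 windows but also in 58.7% of all windows, it overlapped the strict one in CXCL1, CXCL2, CXCL3, CXCL5 and NFKBIA, and it is shown only to set these genes beside the others. Capitals mark every loose match between 100 and 50 bases before the start, a range taken after the strict matches were seen.

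CCL20: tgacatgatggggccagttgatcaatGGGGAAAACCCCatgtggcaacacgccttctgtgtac
TNFAIP3: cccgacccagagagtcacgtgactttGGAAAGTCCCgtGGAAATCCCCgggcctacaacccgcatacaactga

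The CCL20 stretch is chr2:227813735-227813797 (plus) and the TNFAIP3 stretch chr6:137867166-137867238 (plus). The palindromic AP-1 motif TGANTCA was in 1 of the 9 windows, that of IL8, where it began 137 bases before the start, and in 7.71% of all windows. The windows also differed in CpG dinucleotides, the bases that UHRF1 keeps methylated: CCL20 had 3, IL8 had 4, CXCL5 had 9, and the other 6 genes had 22 to 35, against a median of 14 over all windows. These expression arrays measure neither binding nor methylation, no such data were analysed here, and a match is a description of letters only.

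**Figure D1:**
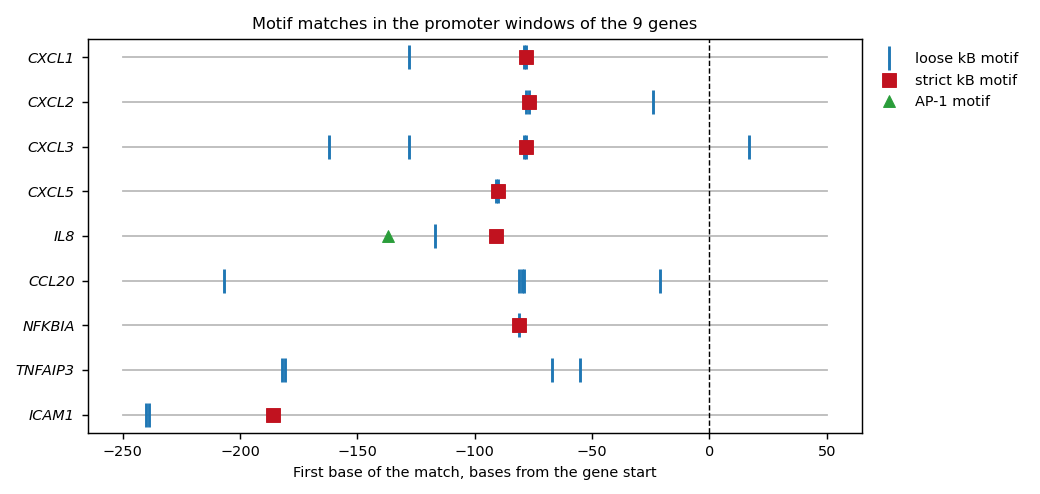
Motif matches in the promoter windows of the 9 genes, one line a gene, with the distance of the first matching base from the gene start in bases on the horizontal axis. Squares mark the strict kB motif, bars the loose kB motif and the triangle the AP-1 motif; in 6 genes the strict motif begins 77 to 91 bases before the start, in ICAM1 it begins 186 bases before it, and CCL20 and TNFAIP3 have none.

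A level is the log2 ratio of a probe's processed intensity to the 75th percentile among all non-control probes of its array, so that 0 is the brightness at that percentile and a difference of 1 is 2-fold. A change is the difference between group means on this log2 scale, given with its standard error (SE) or its 95% confidence interval (CI) from limma, and a gene was called where the Benjamini-Hochberg adjusted p over all probes tested was under 0.05 and the change at least 2-fold. The reported probe of a gene is its brightest. Levels of different genes come from different probes and are not compared.

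The 2 siCONT arrays of an agent differed hardly more than repeated spots of 1 array do (1.09 and 1.18 times that noise, against 13.7 and 12.2 for the siUHRF1 pairs), and were counted as 1 sample in each mean ± SD. A second fit therefore averaged them, and its adjusted p is given beside the calls ("averaged"). It has 2 residual degrees of freedom, and its residual spread comes from the differences between the 2 siRNAs alone. Each siCONT group is 1 value there, while TSA in depleted cells still compares 2 arrays with 2. The averaged p therefore does not weigh the comparisons alike. On the slide, row 1 held mock and row 2 held TSA, with siCONT in columns 1 and 2 and siUHRF1 in columns 3 and 4, so that treatment and place cannot be told apart. UHRF1 itself read 1.98 and 2.01 in siCONT with mock, 0.34 and -0.02 in siUHRF1 with mock, 1.04 and 1.01 in siCONT with TSA, and -1.55 and -2.14 in siUHRF1 with TSA. UHRF1 fell by 1.83 with its siRNAs under mock and fell by 2.87 under TSA (limma adjusted p = 0.012 and 0.00234, and 0.252 and 0.0535 with siCONT averaged), in the direction its labels give. UHRF1 also fell with TSA, by 0.97 in siCONT (limma adjusted p = 0.0175, 0.279 averaged) and by 2.01 in depleted cells (0.00133, 0.013 averaged). The groups compared for TSA thus differed in UHRF1 RNA too.

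Of the 9 genes, 7 were well above background on all 8 arrays and could be tested, and IL8 and CCL20 could not. UHRF1 depletion alone moved none of the 7 past the threshold. TSA raised TNFAIP3 in siCONT cells and in UHRF1-depleted cells, and raised CXCL2 in siCONT cells and CXCL1 in UHRF1-depleted cells. CXCL5 fell where UHRF1 depletion and TSA were combined. NFKBIA, the direct feedback inhibitor, was called in no comparison. Only the rise of TNFAIP3 in UHRF1-depleted cells also passed with the siCONT arrays averaged, and that comparison holds no siCONT array.

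**Figure D2:**
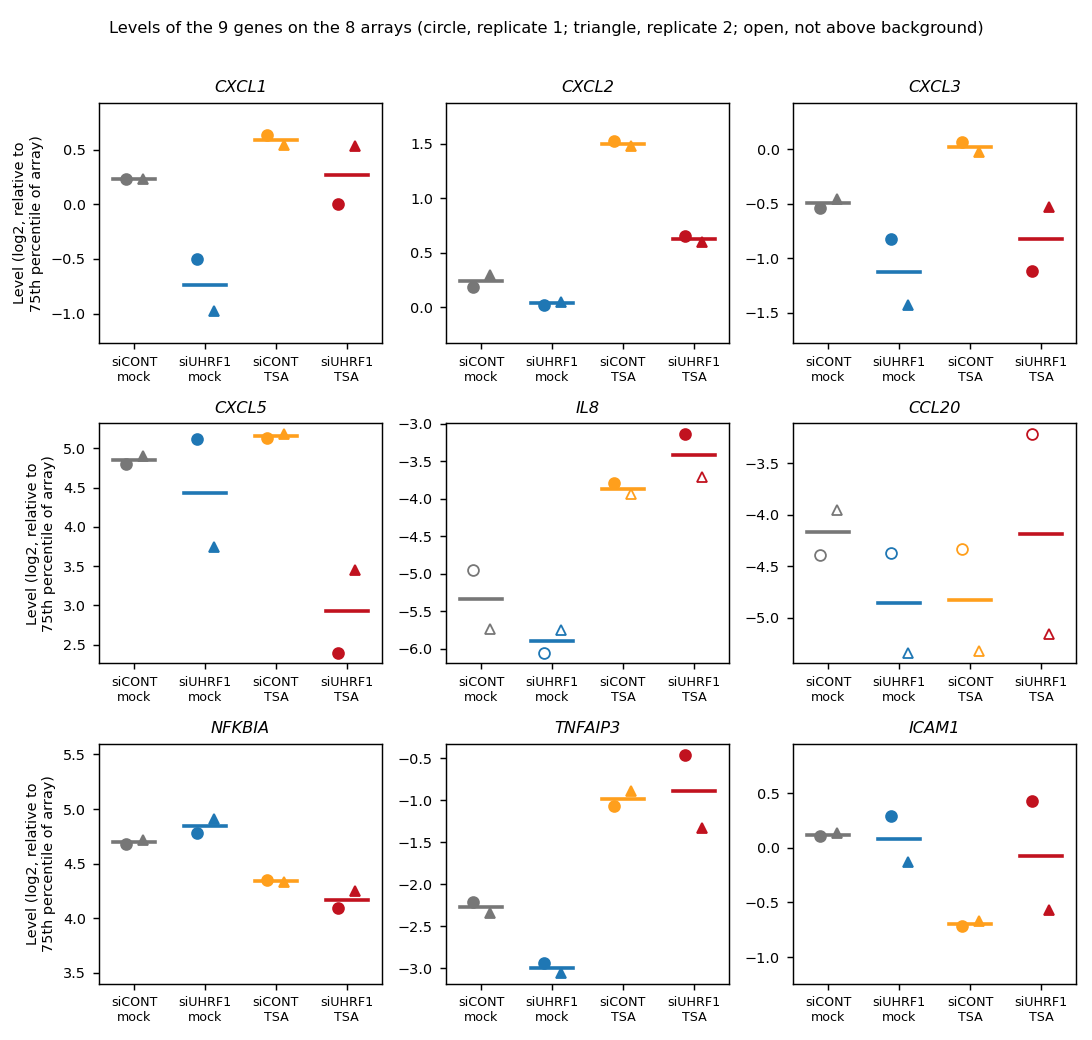
Level of the reported probe of each of the 9 genes on the 8 arrays (log2 units, 0 at each array's 75th percentile), by group, with circles for replicate 1, triangles for replicate 2 and bars for group means. Open symbols were not well above background, and all symbols of CCL20 and 6 of 8 of IL8 are open. In the other genes the siCONT pairs lie close together. The siUHRF1 pairs of CXCL5, CXCL3, CXCL1 and ICAM1 lie apart, as does that of TNFAIP3 with TSA.

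CXCL1, CXCL2 and CXCL3 are near-identical chemokine genes of the cluster on chromosome 4. CXCL2 (probe at chr4:74962985-74963044, hg19) read 0.19 and 0.30 in siCONT with mock, 0.02 and 0.05 in siUHRF1 with mock, 1.52 and 1.48 in siCONT with TSA, and 0.66 and 0.60 in siUHRF1 with TSA. The arrays with TSA were all above those with mock, and among them the siCONT arrays were the higher. In siCONT cells CXCL2 rose by 1.26 with TSA (SE 0.11, 2.39-fold, limma adjusted p = 0.000867), although averaging the siCONT arrays gave an adjusted p of 0.109. In UHRF1-depleted cells the change with TSA was 0.59 (adjusted p = 0.0078), short of 2-fold. Under TSA the change with UHRF1 depletion was -0.87 (95% CI -1.14 to -0.61, limma adjusted p = 0.0076), also short of 2-fold, and 0.249 with siCONT averaged. The test of whether the effect of TSA differed between the siRNA arms gave -0.67 (SE 0.15, limma adjusted p = 0.0584) and did not pass.

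The order of the 4 groups for CXCL2 was siCONT with TSA, siUHRF1 with TSA, siCONT with mock and siUHRF1 with mock, and no neighbouring groups in it had overlapping arrays. Under mock the change with UHRF1 depletion was -0.21, with an interval of -0.47 to 0.06. The other CXCL2 probe (chr4:74964342-74964401) is paired in the files with a transcript of CXCL3 as well as of CXCL2, so it reads both. It gave 0.77 for TSA in siCONT (limma adjusted p = 0.0106), which did not reach 2-fold, and correlated with the first probe at r = 0.948 over the 8 arrays.

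CXCL1 (probe at chr4:74736850-74736909, hg19) read 0.23 and 0.24 in siCONT with mock, -0.50 and -0.98 in siUHRF1 with mock, 0.63 and 0.54 in siCONT with TSA, and 0.00 and 0.53 in siUHRF1 with TSA. The depleted cells with mock were lowest on both arrays, and the siUHRF1-1 array with TSA lay below the siUHRF1-2 array. TSA in UHRF1-depleted cells raised CXCL1 by 1.01 (SE 0.23, 2.01-fold, limma adjusted p = 0.0161), just past the 2-fold threshold. The adjusted p was 0.0767 with siCONT averaged and 0.0548 with each siRNA as a block, and with scaling to medians the change was 0.62 (adjusted p = 0.118). With siUHRF1-2 left out of 1 group the change was 0.77 (without the mock array) or 0.74 (without the TSA array) and was not called. Under mock the change with UHRF1 depletion was -0.97 (95% CI -1.53 to -0.42, limma adjusted p = 0.0536), with -0.73 for siUHRF1-1 and -1.21 for siUHRF1-2. This last change was called without the siUHRF1-1 mock array.

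The combination brought CXCL1 to a change of 0.03 against siCONT with mock, with an interval of -0.52 to 0.59. In the order of the groups, siUHRF1 with TSA and siCONT with mock overlapped, and the other neighbours did not. The other CXCL1 probe (chr4:74735646-74735705) correlated with the first at r = 0.978 and gave 0.92 for TSA in depleted cells (limma adjusted p = 0.0281), below 2-fold.

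CXCL3 (probe at chr4:74902702-74902761, hg19) read -0.54 and -0.46 in siCONT with mock, -0.83 and -1.42 in siUHRF1 with mock, 0.07 and -0.03 in siCONT with TSA, and -1.12 and -0.53 in siUHRF1 with TSA. It was called in no comparison. The siCONT arrays with TSA were the highest, siCONT with mock came next by its mean but overlapped siUHRF1 with TSA, and the 2 siUHRF1 groups overlapped each other. The largest of its changes was that with UHRF1 depletion under TSA, -0.84 (95% CI -1.48 to -0.20, limma adjusted p = 0.0755). Its levels followed those of CXCL1 at r = 0.868 and of CXCL2 at r = 0.752 over the 8 arrays, values that include the shared effects of the groups.

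CXCL5, a neutrophil-attracting chemokine of the same cluster (probe at chr4:74861898-74861957, hg19), read 4.80 and 4.90 in siCONT with mock, 5.11 and 3.74 in siUHRF1 with mock, 5.14 and 5.18 in siCONT with TSA, and 2.40 and 3.45 in siUHRF1 with TSA. Both arrays of the combination lay below all others. Against siCONT with mock CXCL5 fell by 1.93 (SE 0.50, 0.263-fold, limma adjusted p = 0.0223), and against siCONT with TSA it fell by 2.23 (0.213-fold, limma adjusted p = 0.0329). Neither call held with siCONT averaged (adjusted p = 0.129 and 0.274) or without the filter on dim probes (0.0535 and 0.0769). TSA without UHRF1 depletion gave 0.31, with an interval of -0.92 to 1.53. Whether fewer cells made CXCL5 or each made less RNA cannot be told apart in RNA of whole cultures, here or for the other genes.

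The 2 siRNAs gave different values of CXCL5. Under mock the siUHRF1-1 array was 0.26 above the siCONT mean and the siUHRF1-2 array -1.11 from it, and TSA then changed the level by -2.71 with siUHRF1-1 and by -0.29 with siUHRF1-2. The mean ± SD was 4.43 ± 0.97 with mock and 2.92 ± 0.74 with TSA (n = 2 siRNAs), and TSA in depleted cells gave -1.50 (limma adjusted p = 0.0579), a change that was called after scaling to medians or normexp correction. Without the siUHRF1-1 array with TSA the combination gave -1.40 (limma adjusted p = 0.104). It gave -1.98 and -1.88 (adjusted p = 0.0796 and 0.0899) without siCONT mock replicate 1 or 2. The change under TSA was likewise called in none of the fits that left out 1 siCONT array or the siUHRF1-1 array with TSA (adjusted p between 0.0659 and 0.157). The interaction, -1.81 (SE 0.71), did not pass either (limma adjusted p = 0.162).

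IL8, the best known of the neutrophil chemokines, was at or near background. Its reported probe (chr4:74609265-74609324, hg19) had processed intensities of 4.45 and 2.69 in siCONT with mock, 2.85 and 2.79 in siUHRF1 with mock, 12.2 and 11.0 in siCONT with TSA, and 17.0 and 12.5 in siUHRF1 with TSA. All 4 TSA arrays were brighter than all 4 mock arrays, but only replicate 1 of each TSA group was well above background, where the dimmest such probe of an array had 12.2 to 14.0. No fold is given, since the mock values have only an upper bound and the TSA values lie about at it. A second IL8 probe (chr4:74607982-74608041) had 22.4 on replicate 1 of siCONT with TSA and 3.22 to 4.39 on the other 7 arrays, and the probes correlated at r = 0.381. CCL20 (probe within chr2:228681100-228681836, hg19) stayed below the background threshold on all 8 arrays, with intensities of 3.70 to 16.1.

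ICAM1, the adhesion molecule that leukocyte integrins bind, read 0.11 and 0.13 in siCONT with mock, 0.29 and -0.13 in siUHRF1 with mock, -0.72 and -0.67 in siCONT with TSA, and 0.43 and -0.57 in siUHRF1 with TSA (probe at chr19:10396298-10396358, hg19). It was called in no comparison. The siCONT arrays with TSA were the lowest, and the other 3 groups overlapped. TSA in siCONT gave -0.82 (95% CI -1.61 to -0.02, limma adjusted p = 0.0925). Under TSA the siUHRF1-1 array was 1.13 above the siCONT mean and the siUHRF1-2 array 0.12 above it, and the change was called when the siUHRF1-2 array was left out. Its small changes with UHRF1 depletion under mock, TSA in depleted cells and the combination (-0.04, -0.15 and -0.19) turned sign when the percentile was taken over probes above background only.

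NFKBIA, which encodes the inhibitor that NF-kB induces first, was bright, and its changes stayed under 2-fold in the main fit (probe at chr14:35870788-35870847, hg19). It read 4.68 and 4.72 in siCONT with mock, 4.78 and 4.91 in siUHRF1 with mock, 4.35 and 4.33 in siCONT with TSA, and 4.09 and 4.25 in siUHRF1 with TSA. The 4 groups did not overlap, and their order was siUHRF1 with mock, siCONT with mock, siCONT with TSA and siUHRF1 with TSA. TSA in UHRF1-depleted cells gave -0.67 (95% CI -0.97 to -0.38, limma adjusted p = 0.00663; 0.0897 with siCONT averaged), and the combination gave -0.53 (adjusted p = 0.0132). Both intervals leave out a 2-fold change. With the arrays scaled to their medians instead of the 75th percentile, TSA in depleted cells gave -1.07 and was called.

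TNFAIP3, the gene of the A20 enzyme, rose with TSA (probe at chr6:138203679-138203738, hg19). It read -2.21 and -2.35 in siCONT with mock, -2.94 and -3.06 in siUHRF1 with mock, -1.07 and -0.89 in siCONT with TSA, and -0.46 and -1.33 in siUHRF1 with TSA. All arrays with TSA lay above all arrays with mock, and under mock the depleted cells were the lower. TSA raised it by 1.30 in siCONT (SE 0.28, 2.46-fold, limma adjusted p = 0.0143) and by 2.10 in UHRF1-depleted cells (SE 0.28, 4.29-fold, limma adjusted p = 0.00246). It rose by 1.38 with the combination (limma adjusted p = 0.00884). With siCONT averaged the adjusted p was 0.227, 0.0169 and 0.0868 in that order, so that of these calls the rise with TSA in depleted cells passed in both fits.

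The rise of TNFAIP3 in depleted cells was 2.48 with siUHRF1-1 and 1.72 with siUHRF1-2. Its rise in siCONT was called in no fit that left out 1 siCONT array (adjusted p between 0.0607 and 0.0849), and that with the combination was not called without siCONT mock replicate 2 (adjusted p = 0.0517) or without the siUHRF1-1 array with TSA, where it was 0.95. The TNFAIP3 probe was dim, with processed intensities of 18.0 to 109, and background correction by normexp lowered its changes with TSA to 0.52 in siCONT and 0.94 in depleted cells, both under 2-fold. The effect of TSA did not differ between the arms by test (0.81, limma adjusted p = 0.234). Over the 8 arrays TNFAIP3 and NFKBIA, the 2 inhibitors, correlated at r = -0.971, a value that includes the effects of the groups on both genes.

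**Figure D3:**
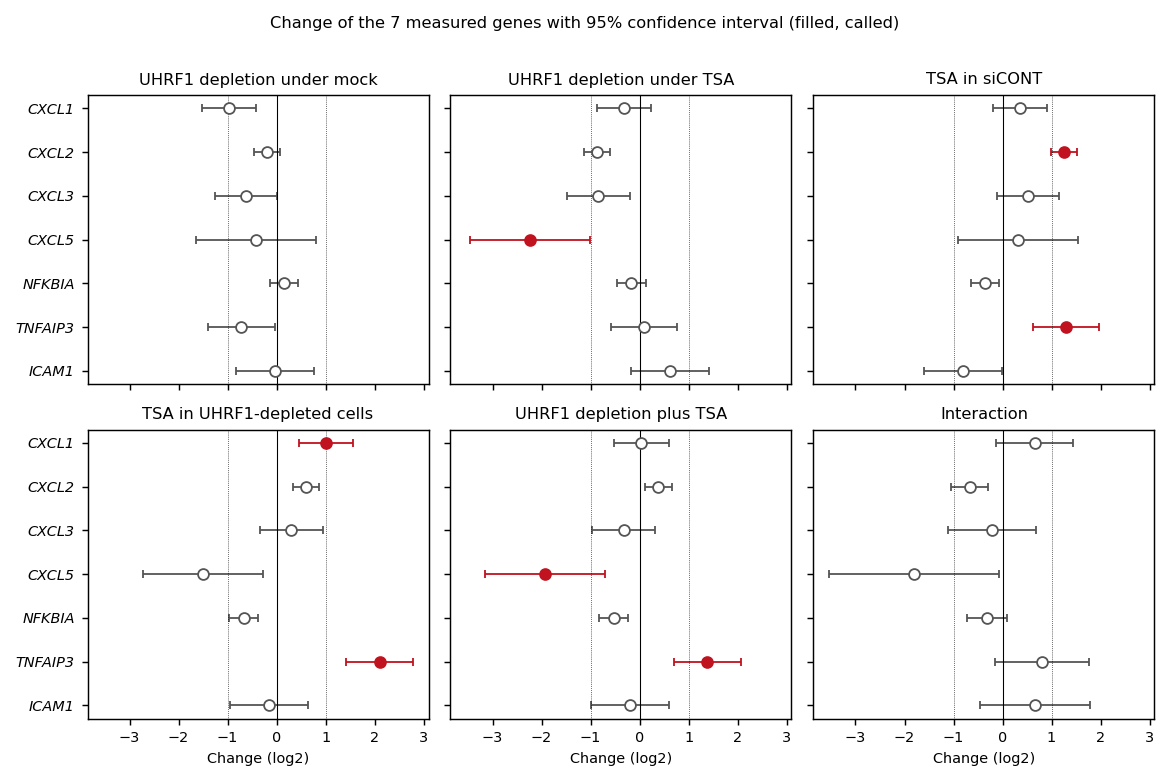
Change of the 7 tested genes in the 6 comparisons (log2, horizontal axis; points are fitted changes and lines their 95% confidence intervals, filled where called). CXCL2 and TNFAIP3 are filled for TSA in siCONT, CXCL1 and TNFAIP3 for TSA in UHRF1-depleted cells, CXCL5 and TNFAIP3 for the combination and CXCL5 for UHRF1 depletion under TSA; dotted lines mark 2-fold.

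Set against all probes, the members were called at shares not far from those of the rest. UHRF1 depletion under mock called 0 of 7 tested members, beside 4.11% of 22391 probes, and in this limma fit at an unadjusted p under 0.05 with 2-fold it also gave 0. TSA in siCONT called 2 of 7 beside 18.6% of probes, the combination called 2 of 7 beside 25.6%, and TSA in depleted cells called 2 of 7 beside 20.7%. UHRF1 depletion under TSA called 1 of 7 beside 8.26%. The interaction called 0 of 7 beside 4.89%, with 1 at the unadjusted threshold. With the siCONT arrays averaged, 1 of 7 members was called for TSA in depleted cells beside 17.6% of probes, and 0 in the other 5 comparisons, where 0.0223% (UHRF1 depletion under mock), 1.56% (TSA in siCONT), 15.4% (combination), 0.692% (UHRF1 depletion under TSA) and 0% (interaction) of probes were called. Groups that do not overlap were common everywhere: for TSA in siCONT 7 of 7 members did not overlap, beside 87.6% of probes. The counts were 5 of 7 beside 64.5% with UHRF1 depletion under mock, 4 of 7 beside 80.1% with the combination, 6 of 7 beside 69.5% with UHRF1 depletion under TSA, and 5 of 7 beside 64.9% with TSA in depleted cells.

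The median change of the 7 members was -0.42 with UHRF1 depletion under mock, where that of all tested probes was -0.10. It was 0.35 for TSA in siCONT (all probes -0.11), -0.19 for the combination (-0.14), 0.30 for TSA in depleted cells (-0.04) and -0.32 for UHRF1 depletion under TSA (0.00). With UHRF1 depletion under mock 6 of the 7 changes were below 0, ICAM1's by 0.04 and with a sign that depends on the scaling, and that of NFKBIA was 0.15. Some of these comparisons share arrays, so their values are set side by side only. Scaling matters for direction where UHRF1 depletion and TSA are combined, since scaling to medians moved the all-probe median from -0.14 to -0.54. It turned the combination's changes of CXCL1 and CXCL2 to -0.37 and -0.02, that of TNFAIP3 for UHRF1 depletion under TSA to -0.27, and that of CXCL3 for TSA in depleted cells to -0.09. CXCL5 kept its direction under all 4 other scalings and background corrections.

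The genes whose levels followed a member most closely were found among 15120 other genes above background on all 8 arrays, by Pearson's r over the 8 arrays. They were NR1D1, MAFG and HECA for CXCL1 (r = 0.981 to 0.987), BAG2, LOC100507056 and KPNA4 for CXCL2 (0.988 to 0.991), and ARMCX5, WWP1 and PIK3CA for CXCL3 (0.979 to 0.987). For CXCL5 they were XLOC_l2_013460, RAB8B and PARM1 (0.990 to 0.992). TMCO4, ID3 and EHF followed NFKBIA (0.996), FRMD5, AKAP13 and ADCK4 followed TNFAIP3 (0.991 to 0.997), and HOMER3, SIRT6 and NEURL3 followed ICAM1 (0.969 to 0.973). All values share the 4 groups, and none of these genes is on a list of the NF-kB pathway used here.

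Other parts of the pathway were read from 10 lists with 120 genes. TSA in siCONT called 9 of their 87 tested genes higher and 13 lower, and TSA in UHRF1-depleted cells called 10 of 85 higher and 10 lower. These were 25.3% and 23.5% of the genes tested, beside 18.6% and 20.7% of all probes, of whose calls 55.8% and 56.5% were higher. UHRF1 depletion under mock called 1 of 83 higher and 3 lower (4.8%, beside 4.11%). The combination called 6 of 86 higher and 15 lower (24.4%, beside 25.6%), and UHRF1 depletion under TSA 4 higher and 5 lower of 86 (beside 8.26%). With siCONT averaged the counts called were 3, 18, 0, 12 and 1 in the same order, beside 1.56%, 17.6%, 0.0223%, 15.4% and 0.692% of all probes. Genes below background in 1 group could enter a test through the group where they are high. Of the 77 listed genes above background on all arrays, 4 were called higher and 11 lower with TSA in siCONT, and 7 higher and 8 lower with TSA in depleted cells. A fit limited to the 19898 probes above background on all arrays called 14.6% and 15.6% of them in these comparisons. Of those calls 45.1% and 42.7% were higher, so that probes of this brightness were called lower more often in general.

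**Figure D4:**
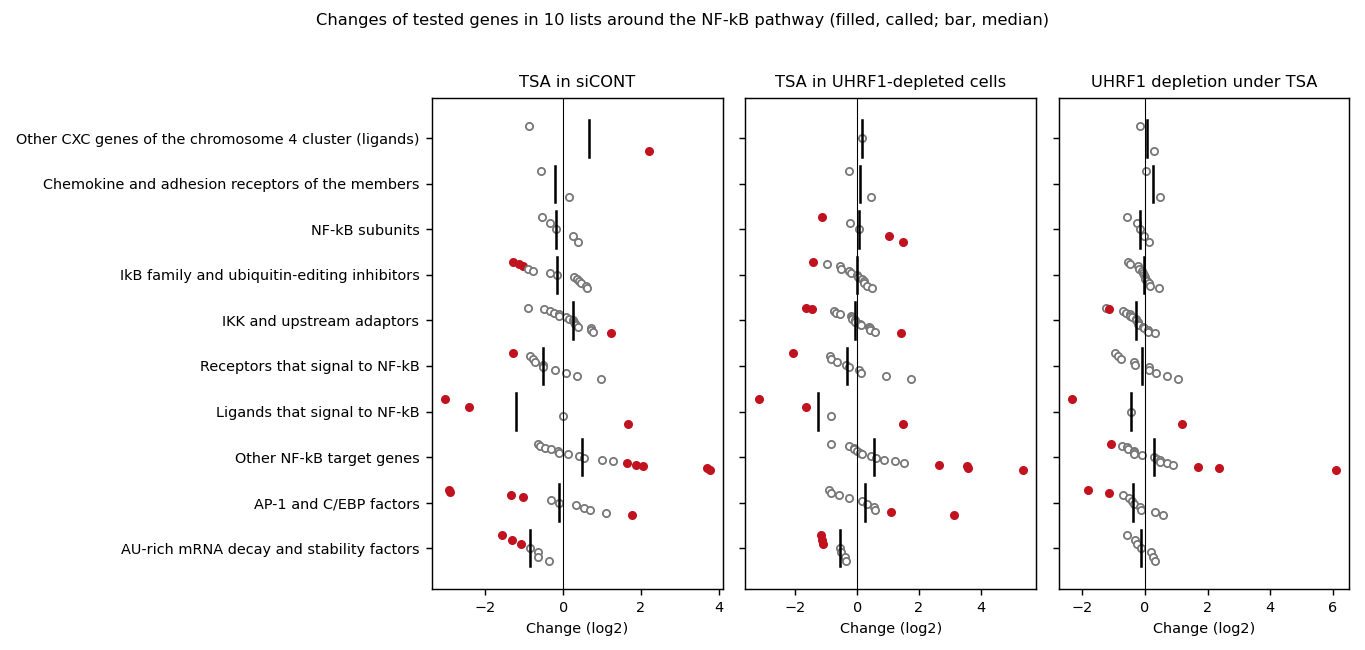
Changes (log2) of the tested genes of the 10 lists for TSA in siCONT, TSA in UHRF1-depleted cells and UHRF1 depletion under TSA. Each point is a gene, filled where called, and the vertical bar of a list is its median. With TSA the called genes of the AU-rich decay and stability list lie to the left of 0. The called genes among the other targets lie to the right of it, several having entered the test only through a group where they are high.

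Among the ligands that start the pathway, 6 of 10 were below background on all arrays, TNF, LTA, LTB and IL1A among them. Of the 4 tested with TSA in siCONT, IL1B (the interleukin-1 beta gene) fell at least 2.14-fold, to below background (limma adjusted p = 0.00057; 0.0472 with siCONT averaged). IL17C, an epithelial cytokine, fell by 2.41 (0.000293; 0.0455 averaged), and IL18 rose by 1.67 (0.00135; 0.0937 averaged). IL33 fell by 2.36 with the combination (0.017; 0.107 averaged). Among 12 receptors, TLR3, the sensor of double-stranded RNA, fell by 1.29 with TSA in siCONT and fell by 2.08 in depleted cells (limma adjusted p = 0.0361 and 0.00681; 0.319 and 0.0318 averaged). With the combination 3 of 10 tested receptors fell, with changes of -2.26 for TLR3, -1.38 for TNFRSF1A (the main TNF receptor) and -1.14 for TLR2 (0.0489, 0.0339 and 0.0607 averaged). Of the members' own receptors 2 of 7 were above background, CCR6 and the integrin chain ITGB2, and neither was called in any comparison.

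Of the 5 NF-kB subunit genes, all were above background on every array. NFKB2, the p100 precursor, read -0.36 and -0.27 in siCONT with mock, -1.45 and -1.95 in siUHRF1 with mock, -0.11 and -0.01 in siCONT with TSA, and -0.05 and -0.38 in siUHRF1 with TSA. It fell by 1.39 with UHRF1 depletion under mock (limma adjusted p = 0.0199; 0.347 averaged) and rose by 1.48 with TSA in depleted cells (0.00267; 0.024 averaged). Its partner RELB rose by 1.01 in the latter comparison (0.0147; 0.074 averaged), while NFKB1 fell by 1.15 (0.00477; 0.0404 averaged). RELA, the usual transactivating subunit, and REL were called in no comparison.

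Of the IkB family and ubiquitin-editing inhibitors, 13 of 14 were tested. NFKBID, NFKBIE and the RNase gene ZC3H12A fell with TSA in siCONT, with changes of -1.30, -1.02 and -1.14 (limma adjusted p between 0.0095 and 0.0124, and between 0.202 and 0.236 averaged). No gene of this list was called higher in any of the 6 comparisons. Among the adaptors, 1 of 17 tested rose with TSA in siCONT, MAP3K14 (the kinase NIK), by 1.23 (limma adjusted p = 0.00591; 0.18 averaged). In depleted cells MAP3K14 rose by 1.41 with TSA (0.00324; 0.0274 averaged). There IRAK1, a kinase of toll-like and interleukin-1 receptors, fell by 1.67 (0.000559; 0.0108 averaged), and MALT1, the paracaspase of antigen receptor signalling, fell to below background, at least 1.50-fold (0.00114; 0.012 averaged).

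Among 28 other NF-kB targets, 11 were above background on all arrays, and of these BIRC3 alone was called with TSA in siCONT and in depleted cells. Other targets were below background in siCONT with mock and were tested only because they were above it in another group, so that their number is no result. They included LCN2 (lipocalin 2, higher by at least 3.39-fold), the complement gene C3 (at least 5.40-fold) and the protease gene MMP9 (at least 3.95-fold) with TSA in siCONT (limma adjusted p = 0.014, 0.00273 and 0.000504; 0.193, 0.0359 and 0.0512 averaged). In depleted cells C3 rose at least 10.1-fold and MMP9 rose by 3.56 with TSA (limma adjusted p = 0.000676 and 7.66e-05; 0.00224 and 0.00237 averaged). TNFAIP2 was below background in both siCONT groups and was at least 11.6-fold higher with UHRF1 depletion under mock and at least 42.5-fold higher under TSA (limma adjusted p = 0.0106 and 0.00338; 0.092 and 0.0341 averaged). BIRC3, an inhibitor of apoptosis, read 2.31 and 2.32 in siCONT with mock, 1.08 and 0.42 in siUHRF1 with mock, 3.95 and 3.94 in siCONT with TSA, and 4.06 and 2.72 in siUHRF1 with TSA. It rose with TSA by 1.63 in siCONT and by 2.64 in depleted cells (limma adjusted p = 0.029 and 0.0053; 0.282 and 0.0256 averaged). This list held other chemokine genes, CCL2, CCL5 and CX3CL1, and IL6, of which none was tested. On chromosome 4, the CXC genes beside the members were mostly dim too: 2 of 8 were ever above background, PF4 and CXCL9, and CXCL9 rose with TSA in siCONT (at least 1.69-fold, limma adjusted p = 0.02; 0.185 averaged).

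AP-1 and C/EBP factors act beside NF-kB on chemokine genes. With TSA in siCONT 4 of the 11 genes on this list fell and 1 rose, beside 18.6% of all probes called. EGR1, which is on the list but of neither family, fell by 2.93, FOS fell by 2.91 and ATF3 rose by 1.76. With UHRF1 depletion under mock the median change of the 11 genes was -1.28, beside -0.10 over all tested probes. JUN, which fell by 1.70, was the only gene of the list called there. None of these calls held with siCONT averaged (adjusted p = 0.174, 0.277, 0.313 and 0.266). In depleted cells ATF3 rose by 3.11 with TSA (limma adjusted p = 0.0055; 0.025 averaged). Chemokine RNAs are short-lived through AU-rich elements. Of 7 listed genes of AU-rich RNA decay and stability, 3 were called lower with TSA in siCONT, beside 18.6% of all probes called. TSA in depleted cells called 3 lower beside 20.7%, the combination called 3 lower beside 25.6%, and none was called higher. ZFP36 (tristetraprolin), which speeds the decay of such RNAs, fell by 1.58 with TSA in siCONT and fell by 1.49 with UHRF1 depletion under mock (limma adjusted p = 0.011 and 0.0431; 0.201 and 0.463 averaged). Its level was 5.60 and 5.58 in siCONT with mock and between 3.52 and 4.57 on the other 6 arrays. Whether the genes of this list bear on the members' RNA was not tested.

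The line's epithelial label was borne out by its markers, since 9 of 9 epithelial genes were well above background on all arrays. Defining genes of other cell types were below background throughout, namely PTPRC, CD3E and ITGAM of leukocytes, COL1A2 and COL3A1 of fibroblasts, and PECAM1, KDR and TEK of endothelium. Some other genes of these lists were higher with TSA. CSF1R, COL1A1 and VWF were below background in siCONT with mock and were tested only through siCONT with TSA. That they were called higher is therefore no result. They were at least 3.12-, 3.07- and 8.03-fold higher there (limma adjusted p = 0.0125, 0.00399 and 0.000384, and 0.185, 0.108 and 0.0376 averaged). The summed intensity of 7 leukocyte genes went from between 0.785 and 0.839 times the 75th percentile in siCONT with mock to between 2.74 and 4.01 in siUHRF1 with TSA. The sums went from between 0.244 and 0.283 to between 0.973 and 1.64 for 7 fibroblast genes, and from between 0.190 and 0.220 to between 1.64 and 1.75 for 5 endothelial genes. For 9 epithelial genes the sum lay between 1462 and 2045 on all arrays, although LGALS4, a galectin of gut epithelium, fell by 3.57 with TSA in siCONT and rose with UHRF1 depletion under mock (limma adjusted p = 0.000132 and 0.00198; 0.0324 and 0.062 averaged). The part of these genes in the members' changes was not tested.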

How the data were processed

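RNA of DLD1 cells was hybridised to 8 arrays. The deposited files hold the processed intensity of each spot, per the file headers, as the authors' Agilent Feature Extraction 10.7 wrote it after background subtraction and with no scaling between arrays. The authors' table of 1 intensity per probe holds the same values and was used as an alternative. Their methods name GeneSpring GX and state no normalization. Non-outlier spots of a probe were averaged, and log2 levels were set relative to the 75th percentile of each array. Between 43.3% and 48.0% of probes were well above background. Dimmer values are bounds ("at least N-fold"), set by the lowest signal well above background, and the number of arrays limits precision.

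The fit used 4 group means in limma 3.58.1 (R 4.3.3) on 24590 probes, with 4 residual degrees of freedom and a prior of 2.17. A probe was tested if well above background on both arrays of a compared group (for the interaction, of any group). The interaction is the effect of UHRF1 depletion under TSA minus that under mock. All tests were two-sided. The script was tested on simulated data. Neither the labels nor the methods say that siCONT arrays came from separate cultures, so p-values measure the spread between these arrays, which may be technical. Beyond UHRF1 and the markers, genes named are all members and, per list and comparison, up to 3 called genes of the largest change, plus the 3 genes most like each member. RELA, REL, CCR6, ITGB2, PF4, BIRC3 and genes below background were named after their values were seen. The members and lists were chosen with earlier results of these data known. Probe positions are those of the files (hg19), and exons were not assigned. Promoter sequences are from RefSeq (GRCh38.p14), where all 9 members matched by symbol, IL8 as CXCL8. Python 3.11.15 and scipy 1.17.1 were used for summaries. Alternatives are given in the closing section.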

Additional observations from a re-analysis of the deposited data

Results flagged for a closer look

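No member had an effect of TSA that differed between the siRNA arms by test. Among the listed pathway genes, 4 passed the limma test of whether UHRF1 depletion under TSA differed from that under mock. The fitted difference was -1.33 for IRAK1 (adjusted p = 0.0259), which was above background on all arrays. For MALT1 it was -1.34 (0.0305), for MMP9 1.50 (0.0231) and for NOS2 1.70 (0.0209), but these 3 were below background in at least 1 group, so that the values have no exact size and are no bound. None of the 4 calls held in other fits. With the siCONT arrays averaged their adjusted p lay between 0.411 and 0.469, and with a replicate block within each siRNA arm, which pairs the arrays of 1 siRNA, the interaction called 0 of 24589 probes (1203 without it; 3218 with it at an unadjusted p under 0.05 and 2-fold).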

How the results depend on the processing

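Of the 7 calls of a member, each kept its direction under every alternative run, and 96 of the 139 values stayed on the same side of the threshold. Averaging siCONT, the filters, the replicate blocks and the t-tests leave the fitted change as it is. Direction could therefore turn only with another scaling, background correction or probe, the authors' table, or a compared array left out. The members called were 0, 2, 2, 1, 2 and 0 for UHRF1 depletion under mock, TSA in siCONT, the combination, UHRF1 depletion under TSA, TSA in depleted cells and the interaction. With siCONT averaged they were 0, 0, 0, 0, 1 (TNFAIP3) and 0. Normexp background correction left 1 (CXCL2) for TSA in siCONT, 1 (CXCL5) for the combination and 1 (CXCL5) for TSA in depleted cells. Scaling to medians left 1 (CXCL5) for the combination and gave 3 (CXCL2, CXCL3, CXCL5) for UHRF1 depletion under TSA and 1 (CXCL2) for the interaction, while for TSA in depleted cells CXCL5 and NFKBIA were called and CXCL1 was not; this scaling moves every probe of a comparison by 1 amount. Without the filter on dim probes UHRF1 depletion under TSA called 0, and IL8, below background on most arrays, took the place of CXCL5 for the combination and joined the calls for TSA in siCONT and in depleted cells. The methods' t-test, at their threshold and after adjustment alike, called 0 for UHRF1 depletion under TSA and 0 for the combination, while with TSA in depleted cells it called 1 (TNFAIP3) unadjusted and 0 adjusted; at 2 arrays a group it has no pooled spread. The cause of the other moves was not tested.

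Leaving out 1 array at a time gave 0 to 1 members for UHRF1 depletion under mock, 1 to 2 for TSA in siCONT, 0 to 2 for the combination, 0 to 2 for UHRF1 depletion under TSA, 2 to 2 for TSA in depleted cells and 0 to 1 for the interaction. The 1 under mock was CXCL1, without siUHRF1-1; those of the interaction were CXCL5 without the siUHRF1-2 mock array and TNFAIP3 without the siUHRF1-2 array with TSA; without either siUHRF1-2 array CXCL5 took the place of CXCL1 for TSA in depleted cells.

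Samples of the same replicate number correlated in their deviations at -0.056 to 0.035 between the siRNA arms, at 0.074 between siCONT with mock and with TSA, and at 0.337 between siUHRF1 with mock and with TSA, where a number marks 1 siRNA. With a replicate block UHRF1 depletion under TSA called 0 members, and with a replicate block within each siRNA arm TSA in depleted cells called 1 (TNFAIP3); no other count of members moved by over 1.5 times. Other probes gave 0.92 for CXCL1 and 0.77 for CXCL2, below 2-fold. Over all probes, averaging siCONT moved the calls from 921 to 5, 4317 to 362, 6077 to 3660, 1970 to 165, 4952 to 4210 and 1203 to 0, in the order above. Depth of signal limits IL8, CCL20 and TNFAIP3.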
